A study of Mus musculus with 8 samples.

Results

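The nuclear genome encodes most subunits of the mitochondrial respiratory chain, and 84 of the 53379 genes listed for each library belonged to this set. They were selected by symbol: names beginning with Nduf and a subunit letter and number, Ndufab1, Uqcr, Cox4i, Cox5 to Cox8 with a letter, or Atp5, plus Sdha, Sdhb, Sdhc and Sdhd. By these names 38 genes belonged to complex I, 4 to complex II, 8 to complex III, 18 to complex IV and 16 to complex V. The selection left out 7 pseudogene rows, none of which summed to more than 19.7 expected counts over all libraries. Names do not follow the protein in every case. Ndufa4 and its paralog Ndufa4l2 were counted in complex I although the Ndufa4 protein is found with complex IV, and Cox7a2l was counted in complex IV by its name only. The name rule does not take in Cyc1, Cycs or Atpif1.

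RNA was sequenced from epithelial cells of the distal colon of C57BL/6 mice. Mice with floxed alleles of the nuclear receptor gene Rora (RORaf/f, here WT) were set against mice whose intestinal epithelium lacks Rora (RORaΔIEC, here KO). Each genotype was left untreated or received dextran sulfate sodium (DSS), which damages the colonic epithelium, at 2% (w/v) in the drinking water for 5 days and then plain water for 3 days. The 4 groups held 2 libraries each. The Cre driver and the age and sex of the mice are not given in the sources used here. Nothing in the labels ties the replicates of a group to separate animals, so the p-values measure the spread between these libraries, which may be technical. In bulk RNA, fewer cells of a type and less RNA per cell cannot be told apart.

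Complex I takes electrons from NADH and complex II, which is also the succinate dehydrogenase of the citric acid cycle, takes them from succinate. Coenzyme Q carries them to complex III and cytochrome c to complex IV, where oxygen is reduced, and complex V uses the resulting proton gradient to make ATP. Differentiated colonocytes oxidise butyrate as their main fuel through this chain, and a few subunits of complexes I, III, IV and V come from the mitochondrial genome instead.

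Promoter sequence is shown because nuclear respiratory genes are known for shared motifs near their start sites. A window of 300 bases, 250 before and 50 after the start site, was found for 67 of the 84 genes in the RefSeq table of build GRCm38.p6, and both strands were searched. The NRF1 motif GCGCATGCG, named for nuclear respiratory factor 1, was present in 8 of the 67 windows (11.9%), against 1.95% of all 27025 genes with a window. The YY1 motif AAGATGGC was present in 9 (13.4% against 3.19%). The ETS motif CCGGAAGT was in 5 (7.46% against 4.31%), and the estrogen-related receptor motif TCAAGGTCA in 2, Atp5g3 and Sdhd (2.99% against 0.466%). The hexamer AGGTCA, to which RORα and many other nuclear receptors can bind and which is contained in the estrogen-related receptor motif, was in 16 windows (23.9% against 18.1%). A match is a run of letters and not evidence of binding. The following stretches of 60 bases lie on the strand of each gene and hold an NRF1 match in Ndufa11 and Cox6a1, an ETS match in Uqcr11 and an estrogen-related receptor match, read on the opposite strand, in Atp5g3. Capitals mark the match, and in the NRF1 examples matches on both strands overlap and span 10 bases. They lie at chr17:56717682-56717741 (plus strand) for Ndufa11, chr5:115349089-115349148 (minus) for Cox6a1, chr10:80406842-80406901 (minus) for Uqcr11 and chr2:73911347-73911406 (minus) for Atp5g3.
Ndufa11: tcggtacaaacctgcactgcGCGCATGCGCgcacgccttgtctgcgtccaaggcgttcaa
Cox6a1: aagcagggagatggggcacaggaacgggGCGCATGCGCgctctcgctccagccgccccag
Uqcr11: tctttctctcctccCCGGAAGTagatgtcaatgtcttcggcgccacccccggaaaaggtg
Atp5g3: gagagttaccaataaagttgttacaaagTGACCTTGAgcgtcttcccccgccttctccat

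Nearly all of the set was well expressed. Of the 84 genes, 79 had enough counts for testing, and the 5 that did not were all tissue-restricted isoforms of complex IV: Cox4i2, Cox6a2, Cox7b2, Cox8b and Cox8c, with at most 3 counts in any library. In levels per length (transcripts-per-million, TPM, mean of untreated WT), the median over tested genes was 193 for complex I, 271 for complex II, 450.1 for complex III, 803 for complex IV and 552 for complex V. Complex I ranged from 0.315 TPM for Ndufa4l2 to 684 TPM for Ndufa6, an accessory subunit with a LYR motif. Complex V ranged from 17.1 TPM for Atp5s, a factor associated with the enzyme, to 1876 ± 26.0 TPM (SD, n = 2) for Atp5b, the catalytic β subunit, which was the most abundant gene of the set. Next in order were Cox8a (1746 ± 14.6), Cox6a1 (1479 ± 6.96), Cox4i1 (1434 ± 16.1) and Atp5g3 (1257 ± 10.3), each separated from its neighbour by more than the sum of their SDs.

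Of the isoform pairs of complex IV, the epithelium used almost only the widely expressed member. Cox4i1, Cox6a1 and Cox8a each made up over 99.9% of their family's TPM in all 8 libraries, and Cox6b1 between 99.05% and 99.7%. The exception was Cox7a1, the isoform known from heart and skeletal muscle, which held 33.5% and 34.5% of the summed Cox7a1 and Cox7a2 TPM in untreated WT and 34.0% and 31.7% in untreated KO. Under DSS its share was 30.1% and 29.4% for WT and 26.9% and 27.0% for KO, with no overlap between treated and untreated libraries. Subunit c of complex V, the proton-carrying ring, is encoded by Atp5g1, Atp5g2 and Atp5g3, whose mature proteins are identical. Atp5g3 gave 55.7% of their summed TPM in untreated WT and between 55.0% and 58.2% over all libraries.

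**Figure D1:**
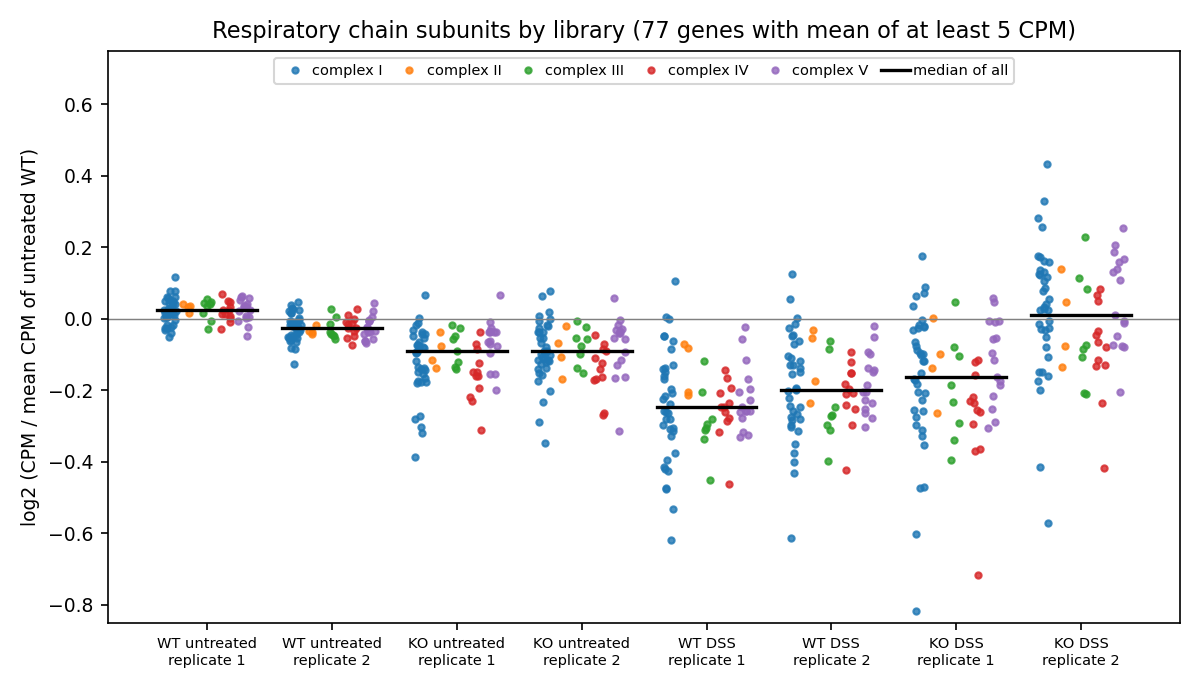
Each point is 1 of the 77 subunit genes averaging at least 5 CPM, plotted on the vertical axis as log2 of its CPM over its mean in untreated WT, by library on the horizontal axis and coloured by complex; bars are medians. Medians lie at -0.25 and -0.20 in DSS-treated WT and at -0.16 and 0.01 in the 2 DSS-treated KO libraries.

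Levels between libraries are given as counts-per-million after TMM scaling (CPM), with the SD over 2 libraries. Against the mean of untreated WT, the median log2 deviation of the 77 genes averaging at least 5 CPM was 0.03 and -0.03 in untreated WT itself and -0.09 in both untreated KO libraries. It was -0.25 and -0.20 in DSS-treated WT, where 74 of 77 genes lay below the untreated mean in each library. The DSS-treated KO libraries stood apart from each other, at -0.16 in replicate 1 and 0.01 in replicate 2. Replicate 2 was above replicate 1 for 76 of 76 genes averaging at least 20 CPM, by a median of 0.18 on the log2 scale, while the median over all 7425 such genes was near 0. In the other groups the median difference between replicates was between -0.05 and 0.05.

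This difference moved with gene length. Of the 76 genes, 71 fell in the shortest of 4 equal classes of effective length, up to 1531 bases. Between the DSS-treated KO replicates, genes of that class were higher in replicate 2 by a median of 0.12 and those of the longest class lower by 0.12 (median -0.12). Groups differed in the same manner. The median DSS change in WT was -0.11 for genes of the shortest class and 0.13 for the longest, and the median difference of KO from WT under DSS was 0.12 for the shortest and -0.09 for the longest. Each comparison is therefore given beside the median of the shortest class and beside a fit that removes a smooth trend on length from every library. The part of gene length in the results was not tested further.

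**Figure D2:**
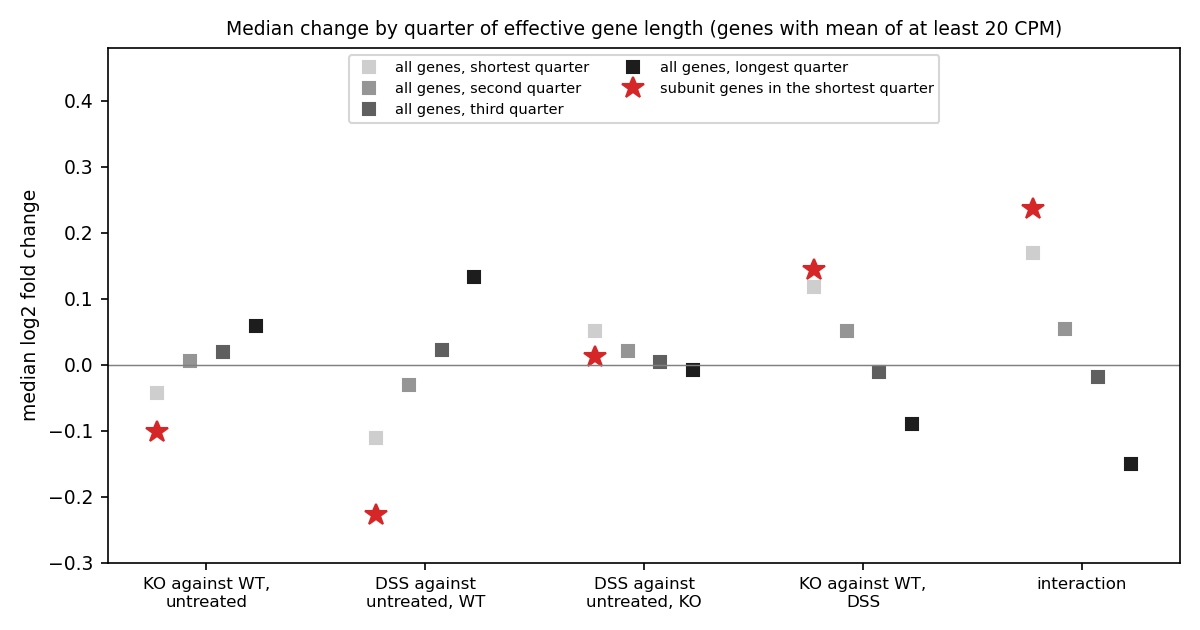
Median log2 fold change (vertical axis) in each comparison (horizontal axis) for all genes averaging at least 20 CPM in 4 equal classes of effective length (squares, light for shortest to dark for longest) and for the 71 subunit genes in the shortest class (stars). The stars lie farther from 0 than the shortest class in DSS-treated against untreated WT (-0.23 against -0.11) and close to it in KO against WT under DSS (0.14 against 0.12).

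Loss of Rora in untreated mice was compared first. Of the 79 tested genes, 7 (8.86%) were lower in KO and none was higher, where over all 14991 genes 6.22% were lower and 9.19% higher at a Benjamini-Hochberg adjusted p under 0.05 in edgeR's quasi-likelihood test. The share lower was thus near that of all genes. The median log2 fold change was -0.10 against 0.01 for all genes and -0.04 for the shortest class, and 76 of 79 values were below 0. The 7 genes were Ndufa1, Ndufa6 and Ndufv3 of complex I, Cox7a2l, Cox8a and Cox5b of complex IV and Atp5d of complex V. At an unadjusted p under 0.05 there were 23 genes.

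Ndufa1, an X-linked accessory subunit that complex I needs for its assembly (chrX:37187588-37191163, GENCODE M21 on mm10), stood at 97.3 and 93.3 CPM in untreated WT and at 72.9 and 74.9 CPM in untreated KO. It fell by 0.37 on the log2 scale (SE 0.07, adjusted p = 0.00178), the SE being the fold change over the square root of the F statistic. Ndufa6 (chr15:82350140-82354322) had 208 and 207 CPM in WT and 167 and 170.2 CPM in KO, a fall by 0.30 (SE 0.05, adjusted p = 0.00155). Cox7a2l (chr17:83501918-83517330) had 266 and 249.6 CPM in WT and 208 and 214 CPM in KO, a fall by 0.29 (SE 0.05, adjusted p = 0.00167). The genotypes did not overlap for any of the 3. Cox7a2l had fractional expected counts in all libraries, which shows that reads were shared with other genes.

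The same 3 genes were also lower in KO under DSS. Ndufa1 had 65.9 and 70.7 CPM in DSS-treated WT and 54.1 and 64.2 CPM in DSS-treated KO, a fall by 0.21 (SE 0.07, adjusted p = 0.0307). Ndufa6 had 168 and 174 against 137 and 156 CPM (fall by 0.22, SE 0.05, adjusted p = 0.00504), and Cox7a2l 230.1 and 242 against 199.9 and 219 CPM (fall by 0.17, SE 0.05, adjusted p = 0.0173). In untreated mice the 3 calls were kept in all 15 other fits, including each left-out library. Under DSS, leaving out WT replicate 2 ended all 3 (adjusted p = 0.206 for Ndufa1), and leaving out KO replicate 1 ended those of Ndufa1 (adjusted p = 0.269) and Cox7a2l. The Ndufa1 call under DSS was also lost in DESeq2 (adjusted p = 0.0687) and with library totals (adjusted p = 0.0525).

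The other 4 genes changed less. Atp5d, the δ subunit of the central stalk, had 364 and 361 CPM in WT and 316 and 324 CPM in KO (fall by 0.18, SE 0.06, adjusted p = 0.0469). Ndufv3, an accessory subunit of the NADH-oxidising module, had 74.5 and 72.1 against 65.8 and 63.7 CPM (fall by 0.18, SE 0.05, adjusted p = 0.0413). Cox8a fell by 0.17 (SE 0.05, adjusted p = 0.0300) and Cox5b, the zinc-binding subunit, by 0.16 (SE 0.05, adjusted p = 0.0384). Each of these 4 calls was lost on leaving out any 1 of the 4 untreated libraries, and those of Atp5d, Ndufv3 and Cox5b also without either DSS-treated WT library, the largest adjusted p over their other fits being between 0.21 and 0.27. All 4 were also lost with effective-length offsets, those of Cox8a and Ndufv3 with the length trend removed, that of Atp5d with library totals, and that of Ndufv3 in DESeq2 and with the replicate block. Over left-out libraries the median of the set ranged from -0.11 to -0.06. The number called also moved without a DSS-treated KO library, whose spread enters the shared error. With the length trend removed, 7 genes were lower and 3 higher (8.86% and 3.8%, against 8.85% and 10.6% of all genes), with a median of -0.03. Of 13 stress genes known to respond to tissue dissociation, such as Fos and Jun, 8 were lower in untreated KO and none higher (summed TPM from 1006 to 1015 against 1113 to 1133 in WT), and their part in the subunit values was not tested.

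**Figure D3:**
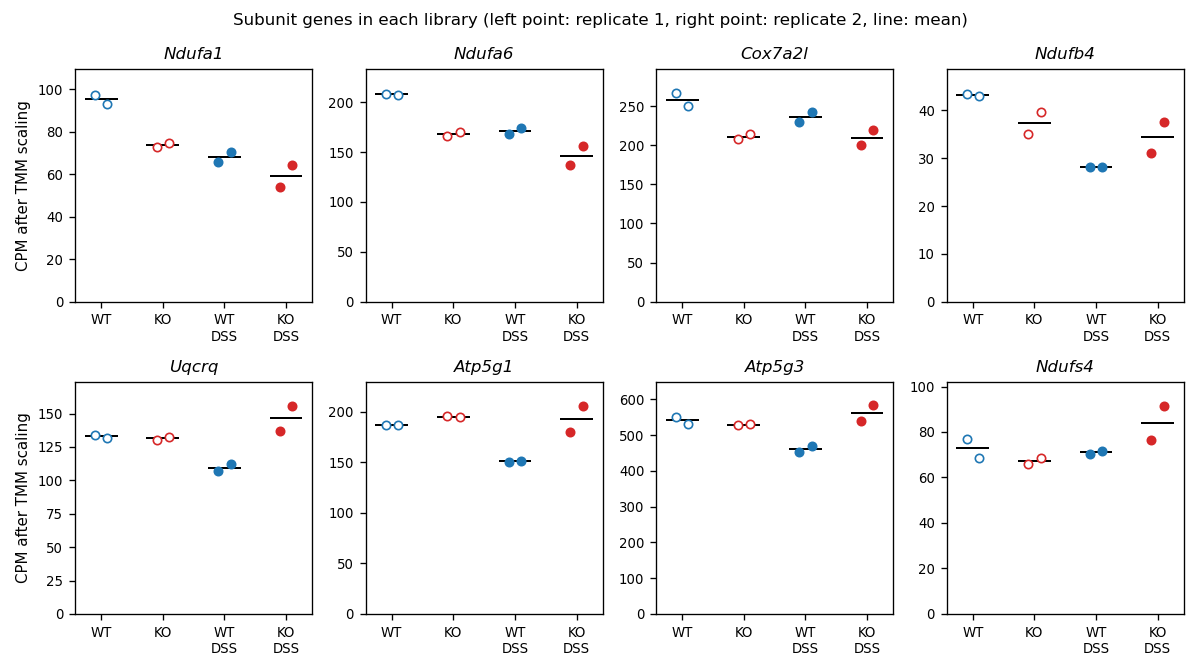
CPM after TMM scaling (vertical axes, from 0) of 8 subunit genes in each library; blue is WT, red is KO, open points are untreated and filled points DSS-treated, and lines are group means. Ndufa1, Ndufa6 and Cox7a2l lie lower in KO than in WT under either treatment, while Uqcrq, Atp5g1 and Atp5g3 lie higher in KO than in WT under DSS.

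After DSS the set was lower in WT. Of 79 tested genes, 52 (65.8%) fell and none rose, against 18.3% lower and 18.9% higher over all genes. The median log2 fold change was -0.22, against -0.01 for all genes and -0.11 for all genes of the shortest class, whose 71 members had a median of -0.23. By complex, 22 of 38 genes fell in complex I, 2 of 4 in complex II, 6 of 8 in complex III, 10 of 13 in complex IV and 12 of 16 in complex V. In complex I, 3 of 7 core and 19 of 31 accessory subunits fell. With the length trend removed, 30 fell and 2 rose (38% and 2.53%, against 18.9% and 18.4% of all genes), with a median of -0.07.

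The 5 largest falls past the threshold were those of Ndufb4, Ndufa1, Cox7a1, Ndufb8 and Uqcr10. Ndufb4, of the membrane arm of complex I (chr16:37647170-37654453), had 43.4 and 42.9 CPM in untreated and 28.1 and 28.2 CPM in DSS-treated WT, a fall by 0.62 (SE 0.08, adjusted p = 5.73e-05). Ndufa1 fell by 0.48 (SE 0.07, adjusted p = 7.4e-05). Ndufb8, also of the membrane arm, had 173 and 167 against 122 and 129 CPM, a fall by 0.44 (SE 0.05, adjusted p = 1.36e-05). The WT groups did not overlap for these genes, which were picked by the test on the same libraries. Uqcr10, a small subunit of complex III, had 205 and 192 against 146 and 151 CPM, a fall by 0.42 (SE 0.06, adjusted p = 6.02e-05).

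Ndufa2, a matrix-arm subunit with a thioredoxin-like fold, had 83.8 and 89.7 CPM before and 62.5 and 66.9 CPM after DSS (fall by 0.42, SE 0.07, adjusted p = 0.000389). Ndufa11 had 58.8 and 60.8 against 44.6 and 46.9 CPM (fall by 0.39, SE 0.09, adjusted p = 0.00341), and its promoter is among those shown above with an NRF1 match. Ndufa7 fell by 0.36 (SE 0.08, adjusted p = 0.00446), but not past the threshold without DSS-treated WT replicate 1 (adjusted p = 0.0601). The muscle-type isoform Cox7a1 had 28.5 and 29.7 against 21.2 and 21.7 CPM, a fall by 0.44 (SE 0.08, adjusted p = 0.00105). Its partner Cox7a2 had 119 and 119 against 104 and 109.5 CPM and did not pass (log2 fold change -0.16, adjusted p = 0.112).

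Other widely expressed isoforms fell by smaller amounts. Cox4i1 fell by 0.29 (SE 0.05, adjusted p = 0.000309), from 639 and 632 to 521 and 517 CPM. Cox6a1 fell by 0.24 (SE 0.05, adjusted p = 0.00281), Cox8a by 0.20 (SE 0.05, adjusted p = 0.00459) and Cox6b1 by 0.20 (SE 0.06, adjusted p = 0.0130). Atp5g1, Atp5g2 and Atp5g3 fell by 0.31, 0.24 and 0.23 (SE 0.06, 0.05 and 0.05), so that all 3 genes for subunit c passed. Calls that did not survive removal of the length trend were those of Cox6a1, Cox8a, Cox6b1, Atp5g2 and Sdhb, with adjusted p between 0.0612 and 0.81. That of Cox8a was also lost without replicate 1 of either WT group, and that of Cox6b1 without any 1 of the 4 WT libraries and with effective-length offsets.

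Complex II, the only complex with no mitochondrially encoded subunit, was divided. Sdha, the flavoprotein that oxidises succinate, had 508 and 497 CPM in untreated WT and 475 and 485 CPM after DSS, and did not pass (log2 fold change -0.07, SE 0.04, adjusted p = 0.183). Sdhb, the iron-sulfur subunit, fell by 0.19 (SE 0.05, adjusted p = 0.00728), and Sdhc, a membrane anchor, fell by 0.22 (SE 0.06, adjusted p = 0.00578). The second anchor Sdhd had 320.5 and 305 against 298 and 306 CPM and did not pass (log2 fold change -0.05, adjusted p = 0.459). The Sdhc call was lost without untreated WT replicate 1 (adjusted p = 0.0752), and that of Sdhb also without DSS-treated WT replicate 1.

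For DSS in WT the median of the set ranged from -0.25 to -0.19 over left-out libraries. Of the 17 calls in this comparison for genes followed through all fits, 10 were kept in each of the 15 alternatives: Ndufb4, Ndufa1, Ndufb8, Uqcr10, Ndufa2, Ndufa11, Cox7a1, Cox4i1, Atp5g1 and Atp5g3. Markers of other cells and stress genes moved in the same comparison. Of 12 colonocyte markers 10 fell and 2 rose (summed TPM from 12020 to 12202 in untreated and from 9878 to 9906 in DSS-treated WT), of 10 macrophage markers 8 rose, and of 11 neutrophil markers 10 rose and 1 fell. The neutrophil markers summed to between 207 and 217 TPM in untreated and between 124 and 140 TPM in DSS-treated WT, and Mmp8, Retnlg, Cxcr2 and S100a8 were at 0 in untreated WT. All 5 erythrocyte markers rose (from 187 to 195 TPM against 491 to 498), and of 8 enteroendocrine markers 7 rose and 1 fell (from 358 to 362 against 543 to 548). Of the 13 dissociation stress genes 10 fell and none rose (median -0.64), with a summed TPM from 1113 to 1133 in untreated and from 604 to 647 in DSS-treated WT. Their part in the fall of the subunit genes was not tested.

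**Figure D4:**
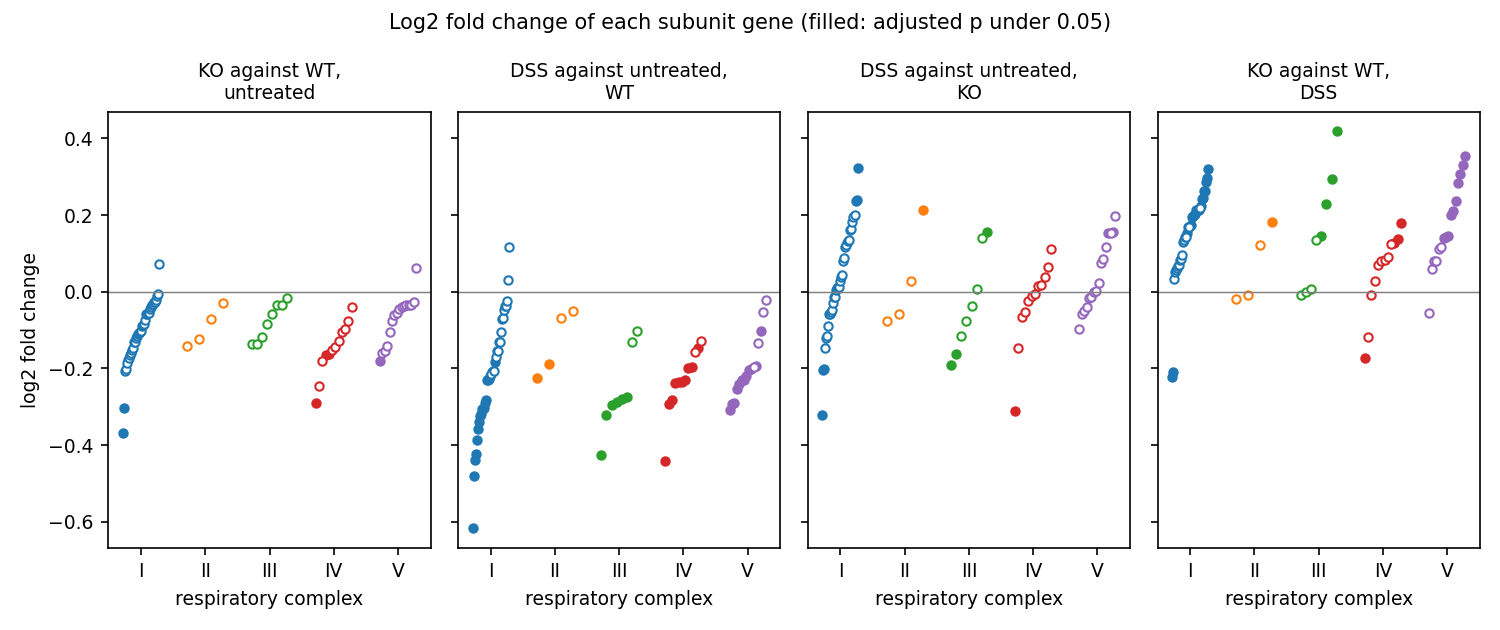
Log2 fold change (vertical axis) of each subunit gene averaging at least 5 CPM, by complex (horizontal axis) and ordered within it, in the 4 comparisons of 2 groups; filled points have an adjusted p under 0.05 in edgeR. No gene past the threshold has a value above 0 for KO against WT in untreated mice or for DSS in WT, whereas filled points lie on both sides of 0 for DSS in KO.

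DSS gave no common direction in KO. Of 79 tested genes 11 (13.9%) rose and 7 (8.86%) fell, both under the shares of all genes (21.7% and 19.8%). The median was 0.01, against 0.00 for all genes and 0.05 for the shortest class. The direction rested on single libraries. The median was 0.10 without DSS-treated KO replicate 1 and -0.08 without replicate 2, while that of all genes stayed near 0. Scaling by library totals gave 23 higher and 6 lower (all genes: 27% and 16%). Effective-length offsets gave 7 and 7 (8.86% each, against 17.1% and 15.3% of all genes). Removal of the length trend gave 18 and 14 (22.8% and 17.7%, against 25.6% and 20.5%), again under the shares of all genes.

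The rises included 2 accessory subunits of the matrix arm, Ndufs4 and Ndufv3. Ndufs4, whose loss causes Leigh-like disease (chr13:114287795-114388258), had 66.1 and 68.4 CPM in untreated and 76.6 and 91.6 CPM in DSS-treated KO, a rise by 0.32 (SE 0.08, adjusted p = 0.00323). Ndufv3 rose by 0.24 (SE 0.06, adjusted p = 0.00294), from 65.8 and 63.7 to 73.1 and 79.7 CPM. These 2 calls were kept in all 15 alternatives. In WT neither passed under DSS, at -0.04 (adjusted p = 0.736) and -0.02 (adjusted p = 0.773).

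Sdhd rose by 0.21 (SE 0.05, adjusted p = 0.00320), from 289 and 279 to 313 and 344 CPM, and Ndufa10, an accessory subunit of the membrane arm, rose by 0.20 (SE 0.05, adjusted p = 0.00290), from 135 and 128 to 147 and 154 CPM. Both calls were lost without untreated KO replicate 2, at adjusted p of 0.0555 and 0.0631. Ndufa4 rose by 0.24 (SE 0.07, adjusted p = 0.0111), from 87.6 and 88.2 to 94.4 and 113 CPM. Smaller rises were those of Atp5f1, subunit b of the peripheral stalk (0.16, adjusted p = 0.0231), and Uqcrq (0.16, adjusted p = 0.0371). The calls of Ndufa4, Atp5f1 and Uqcrq were lost without DSS-treated KO replicate 2 and without either untreated KO replicate, and those of Atp5f1 and Uqcrq also with effective-length offsets. That of Uqcrq was the least stable of the 3, lost in 9 of 15 alternatives, among them DESeq2 and each left-out WT library.

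Falls under DSS in KO were fewer. Ndufa1 fell by 0.32 (SE 0.07, adjusted p = 0.00202), a call kept in all 15 alternatives. Cox7a1 had 24.8 and 24.2 against 17.7 and 21.8 CPM (fall by 0.31, SE 0.09, adjusted p = 0.0120), and this was lost without DSS-treated KO replicate 1 or untreated KO replicate 1 and in DESeq2. Ndufb8 and Ndufa6 each fell by 0.20 (adjusted p = 0.00482 and 0.00859), Uqcrb by 0.19 (adjusted p = 0.00692) and Uqcrh, the acidic hinge protein of complex III, by 0.16 (adjusted p = 0.0298). The calls of Ndufb8, Ndufa6 and Uqcrb were lost without untreated KO replicate 2, and that of Uqcrh without either untreated KO replicate or without DSS-treated KO replicate 1, and with library totals. The testis-enriched isoform Cox6b2, at 23 and 32 counts in untreated and 16 and 13 counts in DSS-treated KO, fell by 1.04 (SE 0.31, adjusted p = 0.0158), not past the threshold without DSS-treated KO replicate 2 or untreated KO replicate 2 or in DESeq2. Of the dissociation stress genes 8 fell and 1 rose under DSS in KO.

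After DSS many subunit genes were higher in KO than in WT. Of 79 tested genes, 39 (49.4%) were higher in KO than in WT and 3 (3.8%) were lower, against 21.3% higher and 17.7% lower over all genes. The median was 0.14, against -0.01 for all genes and 0.12 for the shortest class. By complex, 21 of 38 genes were higher in complex I, 1 of 4 in complex II, 4 of 8 in complex III, 3 of 13 in complex IV and 10 of 16 in complex V. With the length trend removed, 25 were higher and 8 lower (31.6% and 10.1%, against 23.8% and 17.8% of all genes), with a median of 0.07.

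Uqcrq, a small subunit of complex III near the quinone sites (chr11:53427922-53430831), had 107 and 112 CPM in DSS-treated WT and 137 and 156 CPM in DSS-treated KO, where it was higher by 0.42 (SE 0.06, adjusted p = 4.27e-05). In untreated mice it had 134 and 131 CPM in WT and 131 and 132 CPM in KO (log2 fold change -0.02, adjusted p = 0.884). Atp5g1 (chr11:96068852-96075670) had 150.3 and 152 against 180.1 and 206 CPM under DSS, higher in KO by 0.35 (SE 0.06, adjusted p = 0.000150). Atp5g3 had 453 and 470.3 against 539 and 584 CPM, higher by 0.28 (SE 0.05, adjusted p = 0.000187), and Atp5g2 did not pass (0.08, adjusted p = 0.273). Atp5k, subunit e at the dimer interface of complex V, had 87.7 and 87.3 against 100.1 and 119.9 CPM, higher by 0.33 (SE 0.07, adjusted p = 0.00146). For Uqcrq, Atp5g1, Atp5g3 and Atp5k the 2 KO libraries lay above the 2 WT libraries under DSS, and the calls were kept in all 15 alternatives. Of these, Uqcrq, Atp5g1 and Atp5k were picked by the test on the same libraries. The genotypes overlapped for Atp5g2. Atp5g1 and Atp5g2 had fractional expected counts in all libraries.

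Other differences were of similar size but rested on fewer libraries. Ndufc1, a membrane-arm subunit, had 32.9 and 33.6 CPM in DSS-treated WT and 40.0 and 41.5 CPM in DSS-treated KO, higher by 0.30 (SE 0.08, adjusted p = 0.00656), and this was lost without WT replicate 1 (adjusted p = 0.0546). Ndufb6 was higher by 0.32 (SE 0.09, adjusted p = 0.0121), Atp5e, the ε subunit of the central stalk, by 0.31 (SE 0.08, adjusted p = 0.00766), Uqcr11 by 0.29 (SE 0.07, adjusted p = 0.00588) and Ndufb4 by 0.29 (SE 0.09, adjusted p = 0.0172). These 4 were past the threshold no longer without KO replicate 2, in which Ndufb6, for example, had 60.5 CPM against 47.2 in replicate 1. They were also lost without 1 or the other WT replicate: replicate 1 for Atp5e and Uqcr11, replicate 2 for Ndufb6, and either for Ndufb4, whose call was also lost in DESeq2 and with effective-length offsets.

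Fewer genes passed in complexes II and IV. Sdha had 475 and 485 CPM in WT and 470.1 and 477 CPM in KO (log2 fold change -0.02, adjusted p = 0.727), and Sdhb did not pass either (-0.01, adjusted p = 0.910). Sdhc was higher in KO by 0.18 (SE 0.06, adjusted p = 0.0188), a call lost without any 1 of WT replicate 1, WT replicate 2 and KO replicate 2 and with effective-length offsets. Sdhd had 298 and 306 CPM in WT and 313 and 344 CPM in KO, without overlap, and did not pass (0.12, SE 0.05, adjusted p = 0.0665). In complex IV, Cox4i1 (0.08, adjusted p = 0.199), Cox6a1 (0.08, adjusted p = 0.245) and Cox8a (0.03, adjusted p = 0.680) did not pass. Cox6b1 was higher by 0.18 (SE 0.06, adjusted p = 0.0192), a call lost without any 1 of the same 3 libraries and with the length trend removed. The other two genes of complex IV that were higher, named after their values were seen, were Cox5b (0.14, SE 0.05, adjusted p = 0.0395) and Cox7b (0.13, SE 0.05, adjusted p = 0.0406).

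Ndufa4l2, the paralog of Ndufa4 known as a hypoxia-responsive gene, was nearly silent except in DSS-treated KO (chr10:127514967-127517154). Without DSS it had 3 and 4 counts in WT and 0 and 1 in KO. With DSS it had 1 and 2 counts in WT and 33 and 38 in KO. Its CPM in DSS-treated KO was 22.8 times that in DSS-treated WT, from 71 against 3 counts (exact 95% counting interval 7.50 to 113). Against untreated KO, with 1 count, the ratio was 65.3 (11.4 to 2616). These intervals cover counting error only. Even so Ndufa4l2 gave no more than 1.13% of the summed Ndufa4 and Ndufa4l2 TPM in any library. It passed the count filter only through the DSS-treated KO libraries, the group where it is high. Its adjusted p in edgeR (1.12e-05 for KO against WT under DSS, 4.37e-06 for DSS in KO) was drawn from that same group and adds no support. The gene is counted among the 39 higher in KO under DSS and among the 39 positive interactions.

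Over left-out libraries the median difference of the set under DSS ranged from 0.06 without KO replicate 2 to 0.22 without KO replicate 1. It was 0.12 without WT replicate 1. Without WT replicate 1 or without KO replicate 2, the share of the set that was higher was under that of all genes. DESeq2 gave 24 higher (30.4%, against 14.4% of all genes) and effective-length offsets 20 (25.3% against 16.3%). Markers again moved with the genotype under DSS: all 10 proliferation genes were higher in KO (summed TPM from 640.2 to 643 against 264 to 266 in WT), as were all 11 neutrophil markers (from 990 to 1031 against 124 to 140) and 6 of 10 macrophage markers (from 153 to 163 against 68.7 to 69.5), and 7 of 12 colonocyte markers were lower (from 8444 to 8578 against 9878 to 9906). All 4 tested fibroblast markers were higher (from 6.56 to 6.79 against 3.05 to 3.21), while 6 of 8 enteroendocrine and 4 of 5 erythrocyte markers were lower, and of the 13 dissociation stress genes 4 were higher and 2 lower. The proliferation genes were also all higher in untreated KO (from 442 to 445.0 against 313). The part of these markers in the subunit values was not tested.

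The interaction asks whether DSS changed a gene differently in KO and WT. It was positive past the threshold for 39 of 79 genes (49.4%) and negative for none, against 10.8% and 10.6% over all genes. The median was 0.24, against 0.01 for all genes and 0.17 for the shortest class, and 78 of 79 values were above 0. By complex the counts were 18 of 38, 2 of 4, 4 of 8, 5 of 13 and 10 of 16 for complexes I to V. Ndufc1 had an interaction of 0.50 (SE 0.11, adjusted p = 0.00462): it fell by 0.30 under DSS in WT and had a change of 0.20 in KO (adjusted p = 0.0518). Ndufb4 had 0.49 (SE 0.12, adjusted p = 0.00905), Atp5e 0.45 (SE 0.11, adjusted p = 0.0125) and Uqcrq 0.43 (SE 0.08, adjusted p = 0.00162).

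Sdhd (0.26, adjusted p = 0.0164) and Sdhc (0.25, adjusted p = 0.0342) passed in complex II, while Sdha (0.01, adjusted p = 0.919) and Sdhb (0.11, adjusted p = 0.264) did not. The 3 subunit c genes all passed, at 0.29 for Atp5g1, 0.24 for Atp5g2 and 0.32 for Atp5g3. For Ndufa1, Ndufa6 and Cox7a2l, the 3 genes lower in KO under either treatment, it did not pass (0.16, 0.08 and 0.12, adjusted p = 0.266, 0.504 and 0.281). Of the interactions named, those of Uqcrq and Atp5g3 passed in all 15 alternatives. That of Ndufa4l2 passed in the 14 that gave it an adjusted p, but this gene passed the count filter only through DSS-treated KO. The call of Ndufc1 was lost with the length trend removed (adjusted p = 0.0821), that of Ndufb4 without untreated KO replicate 1, and that of Atp5e without the same library, untreated WT replicate 1 or DSS-treated WT replicate 1. Those of Sdhc, Sdhd, Atp5g1 and Atp5g2 were each lost without at least 3 of the 8 libraries. With effective-length offsets the calls of Ndufb4, Atp5e and these 4 genes were lost. The median interaction ranged from 0.14 without DSS-treated KO replicate 2 to 0.31 without DSS-treated KO replicate 1. With the length trend removed, 16 were positive and 1 negative (20.3% and 1.27%, against 12.5% and 9.29% of all genes).

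Summed over the 84 genes, the deposited TPM of untreated mice was 35242 and 34858 for WT and 33892 and 33963 for KO. That of DSS-treated mice was 32504 and 33163 for WT and 35366 and 38684 for KO. The sums in DSS-treated WT were the lowest and did not overlap those of another group. The 13 mitochondrially encoded subunits summed to 139320 and 135800, 129690 and 133100, 141440 and 139510, and 105890 and 91082 TPM in the same order. In the edgeR fits, 12 of the 13 fell under DSS in KO and 6 in WT, against 19.8% and 18.3% of all genes. All 13 were lower in KO than in WT under DSS and 7 without DSS, against 17.7% and 6.22% of all genes. None was higher in these comparisons. In DSS-treated WT the TPM sums, unlike these fits, were not below those of untreated WT. Because TPM is a share of the library, the nuclear sum was also rescaled to the TPM total outside the mitochondrial genome. Without DSS it was then 41048 and 40432 for WT and 39044 and 39277 for KO, and with DSS 37913 and 38603 for WT and 39593 and 42603 for KO, so that the DSS-treated KO libraries lay on either side of untreated WT.

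**Figure D5:**
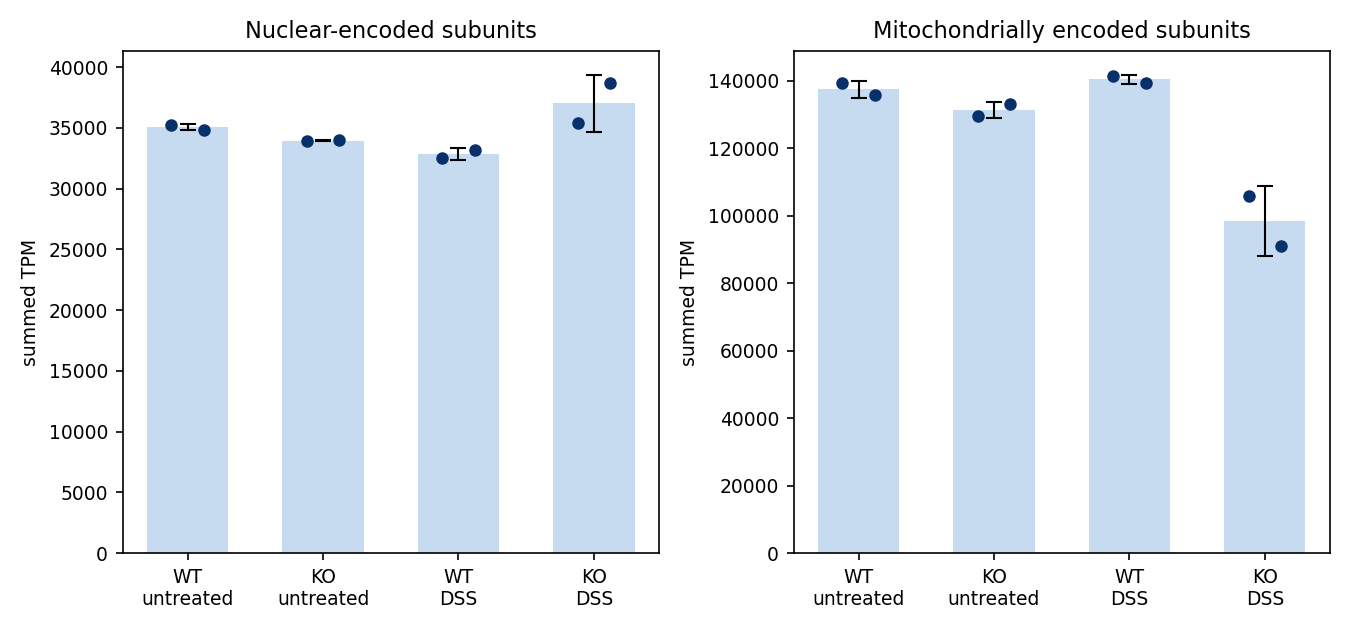
Summed TPM (vertical axes, from 0) of the nuclear-encoded subunits (left) and of the 13 mitochondrially encoded subunits (right) in each group; points are libraries, bars are means and error bars are SDs over 2 libraries. In deposited TPM, before rescaling, the 2 DSS-treated KO libraries have the highest nuclear sums, 35366 and 38684, and the lowest mitochondrial sums, 105890 and 91082.

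By complex, DSS-treated WT had a lower summed TPM than untreated WT for complexes I (7677 ± 161 against 8299 ± 52.8), III (4181 ± 84.3 against 4666 ± 65.7), IV (9846 ± 130 against 10525 ± 82.9) and V (10040.0 ± 74.7 against 10470.0 ± 52.1, SD, n = 2 each), with no overlap of libraries. In TPM complex II was the exception, at 1090.0 ± 16.2 against 1090.3 ± 17.9. In the edgeR fits, however, all 4 of its genes were below 0 for DSS in WT (median log2 fold change -0.13), 2 of them past the threshold. In DSS-treated KO complex II reached 1142 and 1223 TPM and complex V 11329 and 12261 TPM, both above all other libraries (at most 1103 and 10507 TPM), whereas complexes I, III and IV overlapped with other groups. These are deposited TPM, not rescaled to the total outside the mitochondrial genome. The mitochondrially encoded sum was lowest in DSS-treated KO, so this order may not hold after rescaling. All 5 complexes had a larger SD in DSS-treated KO than in any other group, such as 674 TPM for complex I.

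Genes that serve the chain without being subunits were counted in the same fits. In DSS-treated against untreated WT, 10 of 20 citric acid cycle genes fell and none rose. Cs, citrate synthase, had the smallest p (fall by 0.33, SE 0.04, adjusted p = 7.19e-06), and Mpc1, a subunit of the mitochondrial pyruvate carrier, fell most (by 0.41, SE 0.05, adjusted p = 2.27e-05). Among genes for cytochrome c, cytochrome c1 and coenzyme Q synthesis, 8 of 16 fell and 2 rose. The assembly factors of complexes I, II with III, IV and V fell in 4 of 15, 3 of 10, 2 of 23 and 0 of 5 cases. Of 78 mitochondrial ribosomal protein genes 22 fell, and of 21 membrane and import genes 11 fell and 1 rose. The share of subunit genes that fell, 65.8%, was above that of each of these lists, a difference that was not tested, and all genes had 18.3%.

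For KO against WT under DSS, 39 of 78 mitochondrial ribosomal protein genes were higher and none lower, including Mrpl28 (0.53, SE 0.07, adjusted p = 3.35e-05), where 21.3% of all genes were higher and 17.7% lower. Also higher were 6 of 15 complex I assembly factors with none lower, 9 of 21 membrane and import genes with 1 lower, and 6 of 20 citric acid cycle genes with 1 lower. Cycs, which encodes cytochrome c, was higher in KO under DSS by 0.45 (SE 0.05, adjusted p = 5.57e-06), at 308 and 325.5 CPM against 224 and 239.7 CPM in WT. Assembly factors for complexes II and III, IV and V were higher in 1 of 10, 5 of 23 (2 lower) and 1 of 5 cases, and the electron carrier genes in 3 of 16 (2 lower), shares near or under the 21.3% of all genes. Uqcc2, an assembly factor of complex III, had 12.7 and 13.0 CPM in DSS-treated WT and 17.5 and 21.4 CPM in DSS-treated KO (higher by 0.60, SE 0.11, adjusted p = 0.000595).

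Regulators of mitochondrial biogenesis had calls in both directions. Of 19 tested, 1 was higher and 2 were lower in untreated KO (median -0.11, against 9.19% and 6.22% of all genes). Under DSS in WT 1 rose and 4 fell (median -0.08, against 18.9% and 18.3% of all genes). Under DSS 3 were higher and 5 lower in KO than in WT (median -0.04, against 21.3% and 17.7% of all genes). Ppargc1a, the coactivator PGC-1α, had 74.2 and 78.1 CPM in WT and 63.5 and 62.9 CPM in KO without DSS, and 56.2 and 53.7 CPM in WT and 42.4 and 35.9 CPM in KO with DSS. It was lower in KO in untreated mice and under DSS (log2 fold changes -0.27 and -0.49, SE 0.06 and 0.07, adjusted p = 0.0105 and 7.51e-05). Ppargc1a also fell under DSS in both genotypes, by 0.47 in WT and 0.69 in KO (SE 0.06 and 0.07, adjusted p = 6.39e-05 and 1.81e-06). Pprc1, a related coactivator, was higher in untreated KO by 0.48 (SE 0.05, adjusted p = 3.79e-05). Esrrg, estrogen-related receptor γ, fell by 1.10 under DSS in WT (SE 0.11, adjusted p = 2.16e-06).

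Over the whole series the libraries held between 15971642 and 20418466 expected counts, of which the 84 genes took between 1.57% and 1.84%. Rora itself had 12 and 6 counts in WT against 4 and 3 in KO without DSS, and 16 and 14 in WT against 8 and 5 in KO with DSS, so it was lower in the KO libraries, on few counts. The 10 general epithelial markers summed to between 12485 and 12939 TPM in the WT libraries and between 14392 and 15095 TPM in the KO libraries, without overlap, and of the 10 there were 4 higher in KO without DSS, and 4 higher and 1 lower with DSS. Their part in the subunit values was not tested.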

How the data were processed

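RNA sequencing of 8 libraries in 4 groups of 2 was analysed from the deposited gene tables. Per the submitters' processing notes the tools were STAR 2.5.3a, RSEM 1.3.0 and DESeq2 1.18.1 with build mm10, and the annotation and strand setting are not given in the sources used here, so reads of overlapping antisense genes cannot be told apart. Per the file headers the tables hold an expected count, in which RSEM divides reads that map to several genes, with TPM and FPKM per gene and an effective length. Fractional expected counts were found in at least 1 library for 27 of the 84 genes. Deposited TPM served for levels between genes, and FPKM was not used.

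Expected counts were rounded to whole numbers. In R 4.3.3, genes were filtered with filterByExpr and scaled by TMM, and edgeR 4.0.16 fitted all 8 libraries together by quasi-likelihood, with 1 coefficient per group and 4 residual degrees of freedom. Tests were two-sided, with Benjamini-Hochberg adjustment over 14991 genes in each of 5 comparisons and a threshold of 0.05. The code was tested on simulated data. Depth was between 15971642 and 20418466 expected counts, and the common coefficient of biological variation was 3.49%.

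Genes named in full are the 8 largest rises and falls past the threshold among genes with at least 5 CPM in each comparison, the 5 largest interactions, the Sdh genes and the isoform families. Of other lists the 2 genes with the smallest p were eligible. One gene that this rule names is not reported here. The members, lists, tests and this rule were chosen with earlier results of these data known. Alternatives were RLE scaling, library totals, no filter, DESeq2 1.42.0, effective-length offsets, a replicate block and each left-out library. The length-trend offsets (a loess curve with span 0.3 per library) and a crossed block were added after the data were seen. Positions are from GENCODE M21 for mm10, and promoters from RefSeq, matched by symbol.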

Additional observations from a re-analysis of the deposited data

Results flagged for a closer look

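The change under DSS differed between the genotypes, by the test of the difference itself, for 39 of the 79 subunit genes tested (49.4%). All 39 had the larger value in KO, and over all genes 10.8% were positive and 10.6% negative. The median interaction of the set was 0.24, against 0.17 for all genes of the shortest class. With the length trend removed, 16 were positive (20.3%, against 12.5% of all genes). The 5 largest of the 39 interactions, on the log2 scale, were 6.73 for Ndufa4l2, 0.50 for Ndufc1, 0.49 for Ndufb4, 0.45 for Atp5e and 0.43 for Uqcrq. The value for Ndufa4l2 rests on 71 counts in DSS-treated KO against 7, 1 and 3 counts in untreated WT, untreated KO and DSS-treated WT, and it depends on how the fit treats low counts, so it is no measure of size. Groups of 2 are too small for a check of single outlying libraries.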

How the results depend on the processing

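No value past the threshold changed sign for a named gene among the fits that were run for it, and of 68 calls for named genes 25 were kept in all of them. The 25 include those of Ndufa4l2 for KO against WT under DSS, for DSS in KO and for the interaction. This gene passed the count filter only through DSS-treated KO, so its calls add no support. For KO against WT in untreated mice, the number of genes lower was 25 without a filter on low counts, 3 with effective-length offsets and 3 to 30 over left-out libraries, and 3 genes were higher with the length trend removed. For KO against WT under DSS, the number higher was 24 with DESeq2, 20 with effective-length offsets, 25 with the length trend removed and 8 to 64 over left-out libraries. The number lower was 8 with the length trend removed and 0 to 4 over left-out libraries. For DSS in WT, 30 fell and 2 rose with the length trend removed, and 30 to 63 fell and 0 to 1 rose over left-out libraries. For DSS in KO, the number higher was 23 with library totals, 17 without a filter, 7 with effective-length offsets, 18 with the length trend removed and 4 to 33 over left-out libraries. The number lower was 14 with the length trend removed and 2 to 22 over left-out libraries. For the interaction, the number positive was 20 with DESeq2, 10 with effective-length offsets, 16 with the length trend removed (1 negative) and 8 to 71 over left-out libraries. The causes of these changes were not tested. Other counts stayed within 1.5 times their value.

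No pairing by replicate number was seen: deviations of same-numbered libraries correlated between -0.11 and 0.08 across genes. These deviations also hold counting noise, so the check cannot exclude pairing. With the replicate block the counts higher and lower were 0 and 7 for KO against WT untreated, 38 and 3 under DSS, 0 and 52 for DSS in WT, 12 and 8 for DSS in KO and 38 and 0 for the interaction. A crossed pairing, added for DSS in WT, gave 48 lower and 0 higher.

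With 2 libraries per group a left-out library leaves 1, which is assumed to vary like the other groups. Depth was not limiting for most of the set, but for Ndufa4l2 and Cox6b2, with at most 38 counts in a library, and for the 5 untested complex IV isoforms differences were not detectable or were imprecise at this depth.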
